A study of Mus musculus with 12 samples.

Results

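NAD synthesis and consumption were followed here through 10 genes of the mouse left ventricle: Nmrk1, Nmrk2, Nampt, Nmnat1, Nmnat3, Naprt, Nnmt, Nadk2, Cd38 and Nnt. They were found by gene symbol in a count table of 55401 genes, where they fill 11 rows because Nnt is listed under 2 gene models, and 10 of these rows passed the filter on low counts, 1 for each gene. One member, Nmrk2, was chosen by its measured values, for its large difference between genotypes after pressure overload. Its values in any comparison that holds an overloaded group are therefore a description, without a test. The other 9 were chosen for their place in NAD metabolism, with results of these libraries already known.

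The study crossed genotype with surgery. Mice were wild type or carried the T497A substitution in Prkca, the gene of protein kinase C alpha, a calcium-activated kinase of heart muscle. They had a sham operation or transverse aortic constriction (TAC), a band around the aorta that makes the left ventricle pump against raised pressure, at the age of 10 weeks, and left ventricle was taken 5 weeks later, at 15 weeks. Each of the 4 groups, wild type sham, wild type TAC, T497A sham and T497A TAC, held 3 libraries of RNA sequencing. The labels give neither strain, sex nor the zygosity of the substitution, and each title carries a number of its own whose meaning they do not state. If these numbers do not stand for separate animals, p-values reflect only how far these libraries spread, which may be technical.

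NAD is the electron carrier of fuel oxidation, and it is also used up by enzymes that split off its nicotinamide. Cells rebuild it from nicotinamide, in the salvage route that Nampt opens, from nicotinic acid through Naprt, or from nicotinamide riboside through the kinases Nmrk1 and Nmrk2; the routes join at the Nmnat enzymes, which attach the adenylyl group. Heart muscle relies mainly on the Nampt route, and Nmrk2 is known as the riboside kinase of striated muscle. In mitochondria Nadk2 turns NAD into NADP and Nnt moves hydride from NADH to NADP, while Cd38 splits NAD and Nnmt methylates nicotinamide so that it leaves the cycle.

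Total counts ran from 36862004 to 46898344 per library. Levels are given as CPM, counts per 1000000 counts of the library, scaled between libraries with trimmed-mean (TMM) factors. Cardiomyocyte is the labelled cell type, but the RNA came from cardiac tissue with no sorting described, and markers of other cells were measured in every library. The summed CPM of 8 cardiomyocyte markers ranged from 50000 to 61800 in wild type sham, from 35300 to 42900 in wild type TAC, from 45300 to 54800 in T497A sham and from 44800 to 47100 in T497A TAC, and 5 of the 8 fell after TAC in wild type, where 12.6% of all tested genes fell and 12.3% rose. In the same comparison 4 of 6 erythrocyte markers and, near that background, 1 of 8 smooth muscle and pericyte markers rose. Of 7 tested lymphocyte markers edgeR and DESeq2 called 0 there (1 with an unadjusted p under 0.05). Averaged over genotypes, 2 of the 7 rose after TAC, beside 11.2% of all tested genes. The sum of all 8 lymphocyte markers was low, and sham and TAC did not overlap in either genotype. Of all tested genes taken singly, 42.2% did not overlap in wild type and 15.4% in T497A. The sum was 1.32 to 2.37 CPM in wild type sham and 2.7 to 3.58 CPM in wild type TAC. In T497A it was 1.79 to 3.44 CPM after sham and 3.46 to 4.11 CPM after TAC. Mitochondrial genome genes took 26.9% ± 1.97 of the counts in wild type sham, 20.1% ± 0.681 in wild type TAC, 29.2% ± 1.45 in T497A sham and 25.3% ± 0.751 in T497A TAC (SD, n = 3). In such bulk tissue, fewer cells of a type and less RNA per cell cannot be told apart, and the part that cell makeup plays in the values below was not tested.

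The bases just upstream of the 2 riboside kinase genes are shown because the kinases form a pair with the same reaction and different values after TAC. Both stretches end where the annotated exons begin and are read 5′ to 3′ on the gene's strand, from RefSeq promoter windows of GRCm38.p6. Capitals mark the matches to 6 motifs searched on both strands. These were TATAAA (the TATA box) and CANNTG (the E-box, read by helix-loop-helix factors). The others were CATTCC (read by TEAD factors) and TGANTCA (by AP-1). The last were TGACGTCA (the cAMP response element) and TCAAGGTCA (read by estrogen-related receptors). The Nmrk2 stretch lies at chr10:81202052-81202287 on the minus strand and the Nmrk1 stretch at chr19:18631766-18631949 on the plus strand.
Nmrk2: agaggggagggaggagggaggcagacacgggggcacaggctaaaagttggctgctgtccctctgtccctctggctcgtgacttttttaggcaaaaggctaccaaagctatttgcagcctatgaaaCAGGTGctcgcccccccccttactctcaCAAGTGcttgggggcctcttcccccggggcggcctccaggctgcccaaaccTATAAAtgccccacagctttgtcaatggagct
Nmrk1: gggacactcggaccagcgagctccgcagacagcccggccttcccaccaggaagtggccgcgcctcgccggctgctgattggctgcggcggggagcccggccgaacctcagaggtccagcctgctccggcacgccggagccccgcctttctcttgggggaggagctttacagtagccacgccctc

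The Nmrk2 stretch holds TATAAA, with its first base 46 bases upstream of the RefSeq start, and CANNTG as CAGGTG at 125 and as CAAGTG at 97 bases upstream. The Nmrk1 window holds none of the 6 motifs. TATAAA occurred in 13.6% and CANNTG in 72.3% of 32851 promoter windows of the same length, which reach from 250 bases before to 50 bases after each start. The other 4 motifs occurred in 14.7% (CATTCC), 7.81% (TGANTCA), 1.79% (TGACGTCA) and 0.423% (TCAAGGTCA) of them. Of the 10 members, 6 have such windows; Naprt, Nnmt, Nadk2 and Nnt do not. CANNTG matched 3 times in the Cd38 window and 1 time in those of Nampt, Nmnat3 and Nmnat1, and no other motif matched in a member other than Nmrk2. A match is a run of letters and not a measured binding site.

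Levels differ widely between these genes. To compare genes, counts were divided by the length of their annotated exons and written as CPM per kilobase (RPKM). In wild type sham, Nampt stood highest at 60.5 ± 10.2 RPKM, followed by Nadk2 at 18.5 ± 0.75 and Nmnat1 at 7.27 ± 0.223 (SD, n = 3). Below them came Cd38 at 3.89 ± 0.331, Nmnat3 at 3.68 ± 0.374 and Naprt at 2.77 ± 0.626 RPKM, and in this stretch each neighbour's libraries overlapped the next. Nmrk2 followed at 1.68 ± 0.175, then Nmrk1 at 0.753 ± 0.13, Nnmt at 0.598 ± 0.246 and Nnt at 0.345 ± 0.0209 RPKM. Nmrk1 and Nnmt overlapped, as did Nnmt and Nnt. Between groups, Nmrk2 moved most in this order. It was the seventh of the 10 genes in both sham groups and in T497A TAC (2.27 ± 1.54 RPKM), and the second in wild type TAC at 11.6 ± 5.61 RPKM, where its libraries overlapped those of Nadk2 at 7.33 ± 0.273.

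Nmrk2 (ENSMUSG00000004939.7, chromosome 10, positions 81198170 to 81202051 of GRCm38, minus strand) encodes nicotinamide riboside kinase 2, which makes nicotinamide mononucleotide from the riboside. Wild type libraries held 3.49, 2.95 and 2.9 CPM of it after sham and 25.4, 9.63 and 29.2 CPM after TAC. In T497A it was 2.44, 3.27 and 3.74 CPM after sham and 1.78, 7.37 and 3.5 CPM after TAC. All 3 wild type TAC libraries lay above the other 9, the nearest being T497A TAC replicate 2. The wild type TAC libraries also differed among themselves, with a coefficient of variation of 48.5%, and those of T497A TAC with 67.8%.

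As a description, Nmrk2 was 6.87-fold higher after TAC in wild type (log2 fold change 2.78 ± 0.54 SE) and 1.33-fold higher after TAC in T497A (0.41 ± 0.53), where the groups overlapped. Without T497A TAC replicate 2, this last value turned to -0.26. Between genotypes after TAC, the contrast by which it was chosen, Nmrk2 was 5.1-fold lower in T497A (-2.35 ± 0.52), and -3.02 without that library; 48 of the 15764 tested genes had a log2 fold change at or below its own. Only the sham comparison was open to a test, and there Nmrk2 showed no call (0.02 ± 0.54, adjusted p = 1 by the quasi-likelihood test of edgeR). Of its 1854 exon bases, 270 are shared with Atcayos on the opposite strand, and use of strand in the counting is not given in the sources used here.

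Nmrk1 (ENSMUSG00000037847.14, chromosome 19, positions 18631950 to 18652428, plus strand), the riboside kinase of most tissues, carried no such pattern. It was 2.45, 3.33 and 2.56 CPM in wild type sham, 1.95, 2.66 and 2.4 CPM in wild type TAC, 2.44, 3.33 and 2.31 CPM in T497A sham and 2.86, 2.85 and 2.46 CPM in T497A TAC. All 4 groups overlapped. Its log2 fold change after TAC was -0.25 ± 0.21 in wild type (edgeR adjusted p = 0.423) and 0.02 ± 0.21 in T497A.

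Per exon length, Nmrk2 made up 73.9%, 63.8% and 69.3% of the sum of the 2 kinases in wild type sham, and 96.3%, 87.8% and 96.0% in wild type TAC. In T497A the share was 66.6%, 66.2% and 76.3% after sham and 55.4%, 83.7% and 73.9% after TAC. By this measure Nmrk2 was the larger of the pair in all 12 libraries, and its share in the T497A TAC libraries spanned that of both sham groups. The first point depends on the division by length. In counts, Nmrk2 was below Nmrk1 in wild type sham replicate 2 (132 and 149) and T497A sham replicate 2 (118 and 120). It was also below in T497A TAC replicate 1 (80 and 128), and both had 98 in T497A sham replicate 1. These shares rest on the values by which Nmrk2 was chosen and are not tested.

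**Figure D1:**
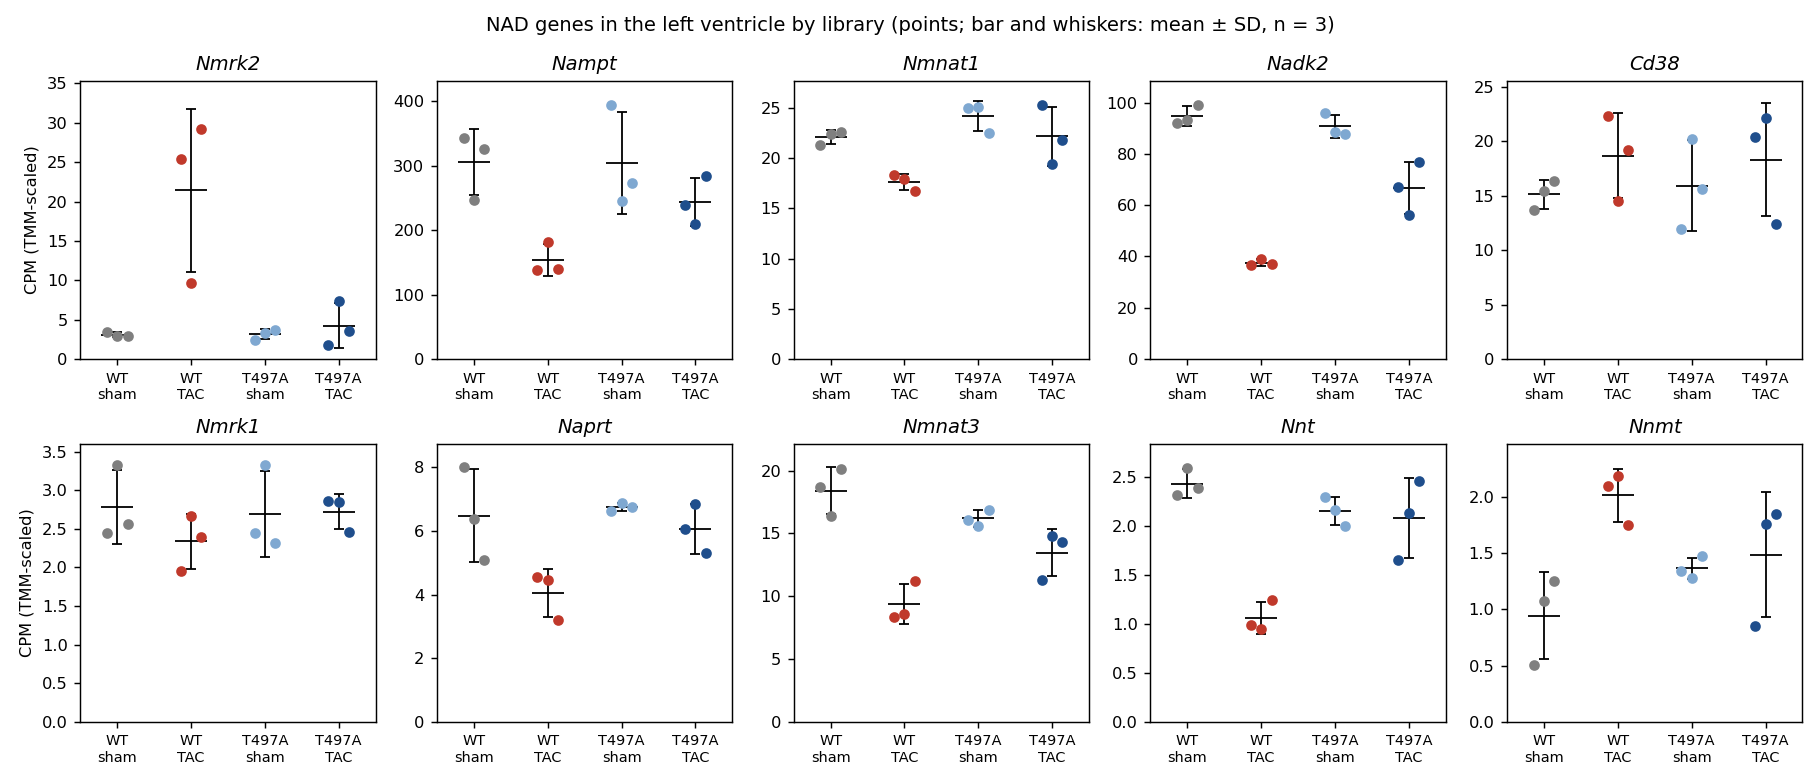
CPM of each of the 10 genes (vertical axes, linear) in the 12 libraries (points), by group on the horizontal axes, with the mean and SD of 3 libraries as bar and whiskers. Nmrk2 lies between 9.63 and 29.2 CPM in wild type TAC and between 1.78 and 7.37 CPM elsewhere; Nadk2 lies between 36.5 and 39.1 CPM in wild type TAC and between 56.2 and 99.1 CPM elsewhere.

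**Figure D2:**
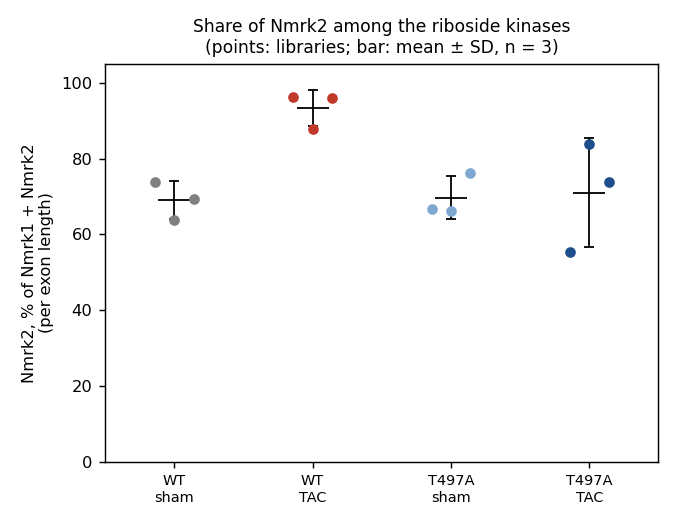
Nmrk2 as a percentage of the summed Nmrk1 and Nmrk2 level per exon length (vertical axis) in each library (points), by group, with mean and SD of 3 libraries. The wild type TAC libraries lie between 87.8% and 96.3% and all others between 55.4% and 83.7%.

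Because Nmrk2 is abundant in skeletal muscle, markers of that tissue were set beside it. The summed CPM of 10 skeletal muscle markers, most of it from Ckm, which the heart also expresses, ranged from 982 to 1160 in wild type sham, 839 to 953 in wild type TAC, 1020 to 1080 in T497A sham and 905 to 966 in T497A TAC. After TAC in wild type, 1 of 9 tested markers rose and 1 fell, near the 12.3% and 12.6% of all tested genes. Myh4, a fast skeletal myosin, was 9.56, 5.23 and 0.0581 CPM in wild type sham, 1.23, 15.6 and 0.186 for wild type TAC, 10.6, 10.7 and 0.748 for T497A sham and 0.848, 0.0483 and 0.0463 CPM in T497A TAC. The wild type TAC library with the highest Myh4, replicate 2, had the lowest Nmrk2 of its group. Markers differed within the list. Mybpc2 was 23.4, 33.4 and 25.5 CPM in wild type sham and 69.1, 68.8 and 52.3 CPM in wild type TAC. In T497A it was 35.8, 27.9 and 19.4 CPM after sham and 42.3, 61.7 and 35.3 CPM after TAC. Its highest T497A TAC library was replicate 2, as for Nmrk2. Between genotypes after TAC, the contrast that chose Nmrk2, the 9 tested markers had a median log2 fold change of -2.14. That median was lower in T497A, as Nmrk2 was. Of the 9, edgeR and DESeq2 called 0 (0 with an unadjusted p under 0.05). Of all tested genes, edgeR called 4.64% higher and 4.06% lower there. The part of skeletal muscle RNA in the Nmrk2 values was not tested.

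Nampt (ENSMUSG00000020572.8, chromosome 12, positions 32819545 to 32853349, plus strand), the rate-limiting enzyme of nicotinamide salvage, fell after TAC in wild type. It was 343, 247 and 326 CPM in wild type sham and 138, 182 and 140 CPM in wild type TAC, with no overlap. T497A sham libraries held 394, 245 and 273 CPM and T497A TAC libraries 239, 210 and 284 CPM, which overlapped. The fall in wild type was 2.0-fold (log2 fold change -1.0 ± 0.20, edgeR adjusted p = 0.00555), whereas T497A gave -0.31 ± 0.20 (adjusted p = 0.607). After TAC, every T497A library lay above every wild type library, by a log2 difference of 0.68 ± 0.20 that missed the threshold (adjusted p = 0.069) and passed it with DESeq2 (0.0037) and when only these 2 groups were fitted (0.0352). The difference between the TAC effects was 0.68 ± 0.28 (adjusted p = 0.264), so a genotype-dependent response of Nampt was not shown.

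Naprt (ENSMUSG00000022574.7, chromosome 15, positions 75890956 to 75894481, minus strand), which starts the nicotinic acid route, was expressed at a low level. Its libraries read 8.01, 6.37 and 5.08 CPM in wild type sham, 4.54, 4.46 and 3.19 for wild type TAC, 6.62, 6.88 and 6.75 for T497A sham and 6.05, 6.86 and 5.3 CPM in T497A TAC. The wild type TAC libraries were the lowest of the 12. After TAC in wild type Naprt fell 1.6-fold (-0.68 ± 0.18, edgeR adjusted p = 0.0155). This call was lost without wild type sham replicate 1 or wild type TAC replicate 3 (-0.53 to -0.50, adjusted p = 0.0737 to 0.0838). T497A gave -0.15 ± 0.18 (adjusted p = 0.816). Of its 2344 exon bases, 277 are shared with Eef1d on the same strand, whose counts ran from 3069 to 4220 per library.

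Both Nmnat genes, whose enzymes stand where the routes meet, fell after TAC in wild type, and the mitochondrial one by more. Nmnat1 (ENSMUSG00000028992.13, chromosome 4, positions 149467572 to 149485202, minus strand), the nuclear enzyme, was 21.3, 22.4 and 22.6 CPM in wild type sham and 18.3, 17.9 and 16.7 CPM in wild type TAC. T497A sham held 25.0, 25.1 and 22.5 CPM and T497A TAC 25.3, 19.4 and 21.8 CPM. The 3 wild type TAC libraries were again the lowest, and the other groups lay close together. The change in wild type was small (1.25-fold lower, -0.33 ± 0.10, edgeR adjusted p = 0.0245) and was no longer called without wild type sham replicate 2, wild type sham replicate 3 or wild type TAC replicate 3 (-0.32 to -0.29, adjusted p = 0.0653 to 0.0941). After TAC it was 1.26-fold higher in T497A (0.33 ± 0.10, adjusted p = 0.0485), a call lost in 7 of 11 alternative settings (0.23 to 0.36, adjusted p = 0.0522 to 0.196): each wild type TAC library left out, T497A TAC replicate 1 or 3 left out, only these groups fitted, or mitochondrial genome genes left out.

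Nmnat3 (ENSMUSG00000032456.13, chromosome 9, positions 98287435 to 98420438, plus strand), which is assigned to mitochondria, was 18.7, 16.4 and 20.1 CPM in wild type sham and 8.37, 8.59 and 11.2 CPM in wild type TAC. In T497A it was 16.1, 15.6 and 16.9 CPM after sham and 11.3, 14.8 and 14.3 CPM after TAC. Neither pair of sham and TAC groups overlapped, and the wild type TAC libraries were the lowest. Nmnat3 fell 1.96-fold after TAC in wild type (-0.97 ± 0.13, edgeR adjusted p = 0.000191), a call that held in all 11 alternatives, and gave -0.26 ± 0.13 in T497A (adjusted p = 0.471). Between genotypes after TAC it was 1.44-fold higher in T497A (0.53 ± 0.13, adjusted p = 0.0288). That call was lost without wild type TAC replicate 1 or 2, without T497A TAC replicate 2 or 3, and when only these groups were fitted (0.45 to 0.52, adjusted p = 0.0736 to 0.101). The difference between its TAC effects was 0.71 ± 0.19, above the threshold in edgeR (adjusted p = 0.0752) and below it with DESeq2 or without the low-count filter (0.00407 to 0.0169).

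Nadk2 had the smallest adjusted p of the 9 tested members after TAC in wild type. It encodes the mitochondrial NAD kinase, the source of NADP in that compartment (ENSMUSG00000022253.15, chromosome 15, positions 9071260 to 9110891, plus strand). Wild type libraries read 91.9, 93.3 and 99.1 CPM after sham and 36.5, 39.1 and 36.9 CPM after TAC. Those of T497A read 95.9, 88.5 and 87.7 CPM after sham and 67.0, 56.2 and 76.8 CPM after TAC. The T497A TAC libraries lay between the other groups, with no overlap on either side.

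In wild type Nadk2 fell 2.53-fold after TAC (-1.34 ± 0.10, edgeR adjusted p = 3.48e-06). In T497A it was 1.36-fold lower (-0.44 ± 0.09), which did not pass in edgeR (adjusted p = 0.0998), but passed with DESeq2 and without the low-count filter (adjusted p = 0.00025 to 0.00629). The TAC effects differed between genotypes by 0.89 ± 0.13 on the log2 scale (1.86-fold, adjusted p = 0.00948), and this interaction held its call in all 16 alternatives, between 0.78 and 1.00. After TAC the level was 1.78-fold higher in T497A than in wild type (0.83 ± 0.09, adjusted p = 0.000446), again called in all 11 alternatives. After sham the genotypes gave no call (adjusted p = 1). The order of the groups in Nadk2 is also that of the summed cardiomyocyte markers by group mean, except that the latter overlap between T497A sham and T497A TAC. Myh6 gave the largest part of that sum. In wild type 5 of the 8 markers fell after TAC, but Actn2 went the other way. It was 2070, 1930 and 1850 CPM in wild type sham and 2120, 2360 and 2390 CPM in wild type TAC. A link between Nadk2 and these markers was not tested.

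Nnt (ENSMUSG00000025453.18, chromosome 13, positions 119335448 to 119408997, minus strand), the proton-driven transhydrogenase of the inner mitochondrial membrane, had the lowest level of the 10 genes per full exon length. A limit on its counts comes first: its second gene model, ENSMUSG00000116207.1, has all 3339 of its exon bases inside the 7037 of the first and holds 0 counts in every library. These 0 counts mean that no read was counted for both models. How reads in the shared exons were otherwise treated is not given in the sources used here. The values may thus cover only the 3698 unshared bases, and they rest on 41 to 116 counts per library. Nnt was 2.31, 2.59 and 2.38 CPM in wild type sham, 0.986, 0.947 and 1.24 CPM in wild type TAC, 2.29, 2.16 and 2.0 CPM in T497A sham and 1.65, 2.13 and 2.46 CPM in T497A TAC. Wild type TAC stood below the other 9 libraries, and the 2 T497A groups overlapped. The labels give no strain, so which Nnt allele these mice carry is not known here.

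The fall of Nnt after TAC in wild type was 2.3-fold (-1.20 ± 0.22, edgeR adjusted p = 0.00135), and T497A gave -0.05 ± 0.21 (adjusted p = 0.955). After TAC it was 1.96-fold higher in T497A (0.97 ± 0.22, adjusted p = 0.0159), a call lost without wild type TAC replicate 1, without T497A TAC replicate 3 and when only these groups were fitted (0.83 to 0.97, adjusted p = 0.052 to 0.074). The difference between the TAC effects was 1.15 ± 0.30, not called by edgeR (adjusted p = 0.0738) and called by DESeq2 (0.018). Divided by the unshared bases alone, Nnt reached 0.656 ± 0.0398 RPKM in wild type sham (SD, n = 3), above Nnmt at 0.598, so its last place there depends on the length used. In wild type TAC that value was 0.286 ± 0.0422 RPKM, still the lowest.

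Neither of the 2 genes on the side of consumption and clearance fell after TAC. Cd38 (ENSMUSG00000029084.5, chromosome 5, positions 43868553 to 43912375, plus strand), an NAD glycohydrolase of immune and endothelial cells, was 13.7, 15.4 and 16.3 CPM in wild type sham, 22.3, 14.5 and 19.2 for wild type TAC, 11.9, 20.2 and 15.6 for T497A sham and 20.4, 22.1 and 12.4 CPM in T497A TAC. Libraries of all groups overlapped. The log2 fold change after TAC was 0.30 ± 0.24 in wild type (edgeR adjusted p = 0.406) and 0.20 ± 0.24 in T497A (adjusted p = 0.817). Markers of cells that can carry Cd38 were measured beside it. The summed CPM of 8 macrophage markers ranged from 132 to 146 in wild type sham and 200 to 240 in wild type TAC. In T497A it ranged from 141 to 165 after sham and from 153 to 208 after TAC. Of the 8, 6 rose after TAC in wild type, where 12.3% of all tested genes rose and 12.6% fell. Of 8 endothelial markers edgeR and DESeq2 called 0 there, 0 had an unadjusted p under 0.05, and their sum ranged from 699 to 987 CPM over all libraries.

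Nnmt (ENSMUSG00000032271.13, chromosome 9, positions 48591877 to 48605153, minus strand) is the methyltransferase that removes nicotinamide and is best known from liver and fat. Its counts were low, 22 to 96 per library. It was 0.508, 1.07 and 1.25 CPM in wild type sham, 2.1, 2.19 and 1.75 CPM in wild type TAC, 1.34, 1.28 and 1.47 CPM in T497A sham and 0.848, 1.76 and 1.85 CPM in T497A TAC. Wild type sham and TAC did not overlap, and the T497A groups did. Nnmt was the one tested member that rose after TAC in wild type, by 2.15-fold (1.10 ± 0.35, edgeR adjusted p = 0.0326); T497A gave 0.12 ± 0.34 (adjusted p = 0.93). The rise lost its call without wild type sham replicate 1 or 2 and without each wild type TAC replicate in turn (0.80 to 1.21, adjusted p = 0.0535 to 0.123).

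Markers of fibroblasts and adipocytes were measured beside Nnmt. The summed CPM of 8 fibroblast markers ranged from 1800 to 1850 in wild type sham and 2760 to 3170 in wild type TAC. In T497A it ranged from 1780 to 2110 after sham and from 2230 to 2430 after TAC. Of the 8, 4 rose after TAC in wild type, beside 12.3% of all tested genes. Markers differed within the list. Col1a1 was 89.1, 129 and 99.5 CPM in wild type sham and 464, 417 and 460 CPM in wild type TAC. Dpt was 57.7, 67.7 and 53.2 CPM in wild type sham and 65.6, 67.1 and 63.7 CPM in wild type TAC. The sum of 8 adipocyte markers stayed between 0.132 and 3.43 CPM, and Ucp1 and Adrb3 were at 0 in 11 and 9 of the 12 libraries. The part of either cell type in the Nnmt values was not tested.

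Counted together, 6 of the 9 tested members fell and 1 rose after TAC in wild type, against 12.6% and 12.3% of all 15764 tested genes. The 6 are Nampt, Naprt, Nmnat1, Nmnat3, Nadk2 and Nnt, and the 1 is Nnmt. The median log2 fold change of the 9 was -0.68, and that of all tested genes 0.01. Libraries of the sham and TAC groups did not overlap for these 7 members, compared with 42.2% of all tested genes. Without wild type TAC replicate 3 the count of called members dropped from 7 to 4.

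In T497A hearts edgeR called none of the 9 after TAC, in a comparison that called 0.114% of all tested genes; 1 member, Nadk2, had an unadjusted p under 0.05, and DESeq2 called 1. The median was -0.12. Groups did not overlap for 2 members, Nmnat3 and Nadk2, and for 15.4% of all tested genes. The count of 0 is thus near the background of a comparison in which very few genes passed.

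After sham, edgeR called none of the 10 members between genotypes, none had an unadjusted p under 0.05, DESeq2 called 0, and the background was 0.0254%. Their median was 0.01. For 2 members, Nnt (-0.17 ± 0.21) and Nnmt (0.54 ± 0.35), the genotypes did not overlap after sham, compared with 8.21% of all tested genes.

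After TAC, 4 of 9 members were higher in T497A, Nmnat1, Nmnat3, Nadk2 and Nnt, and 0 were lower, beside 4.64% and 4.06% of all tested genes; this is the contrast that chose Nmrk2. DESeq2 called 6 and edgeR without the low-count filter 5, whereas 3 were called without mitochondrial genome genes, 2 when only these groups were fitted, and between 1 and 3 with 1 library left out. Groups did not overlap for 6 members and for 28.0% of all tested genes. These values and those of the interaction share the wild type TAC libraries with the fall in wild type and are not separate evidence. For the interaction edgeR called 1 of 9 higher, Nadk2, and 0 lower (background 0.894% and 0.679%), and DESeq2 called 3.

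Averaged over genotypes, 6 of 9 members fell after TAC and 0 rose, with 11.2% of all tested genes called in each direction. The 6 were those that fell in wild type. Their averaged log2 fold changes ran from -0.89 ± 0.07 for Nadk2 (edgeR adjusted p = 5.2e-06) to -0.22 ± 0.07 for Nmnat1 (adjusted p = 0.0294). Naprt (-0.41 ± 0.13, adjusted p = 0.0328) and Nmnat1 lost this call in 8 and 7 of 16 alternatives, each of which left out 1 library. The average includes the wild type effect and is not separate evidence of a fall in both genotypes. In T497A alone edgeR called none of the 9. Nnt, for example, was -0.62 ± 0.15 in the average and -0.05 ± 0.21 in T497A.

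**Figure D3:**
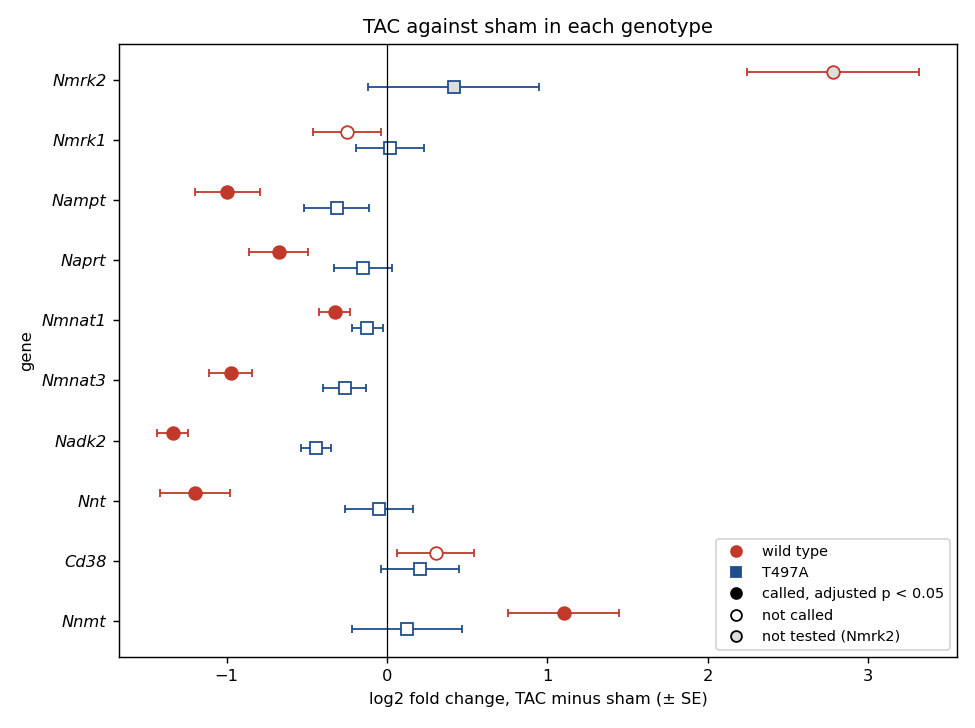
Log2 fold change of TAC against sham (horizontal axis, ± SE) for the 10 genes (vertical axis) in wild type and T497A, from edgeR; filled and open symbols tell called from uncalled or untested values. In wild type 6 genes lie below 0 and are called, from -1.34 for Nadk2 to -0.33 for Nmnat1, while the T497A values lie between -0.44 and 0.41.

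The rest of the pathway was read from 55 further genes in 9 lists, chosen with earlier results known; 49 passed the filter. After TAC in wild type 7 rose (14.3%, near the 12.3% of all tested genes) and 12 fell (24.5%, beside 12.6%), and their median log2 fold change was 0.03, beside 0.01 for all tested genes. In T497A edgeR called none after TAC (10 had an unadjusted p under 0.05, DESeq2 called 4), and after sham none between genotypes (4 with an unadjusted p under 0.05, DESeq2 called 0). After TAC 2 were higher and 1 lower in T497A (4.08% and 2.04%, under the 4.64% and 4.06% of all tested genes), and for the interaction 1 was higher and 1 lower, where all tested genes gave 0.894% and 0.679%. The counts by list below are few genes each and stand against the same 12.3% higher and 12.6% lower after TAC in wild type.

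Of 10 listed genes of the de novo route from tryptophan and of its last step, 5 were too low to test, with at most 10 counts in any library (Ido2, Kynu, Haao, Acmsd and Qprt), and 0 of the other 5 were called after TAC in wild type by edgeR or DESeq2 or had an unadjusted p under 0.05. The same held for both NAD repair genes, Naxe and Naxd. Of the other NAD glycohydrolases 1 of 2 rose after TAC in wild type: Bst1, with a mean of 0.926 CPM and named after its values were seen, by 2.02-fold (1.02 ± 0.32, edgeR adjusted p = 0.0307). It lost this call without wild type sham replicate 1 or 3, without each wild type TAC library and without the low-count filter (adjusted p = 0.0543 to 0.107). In the salvage list, 2 of 4 tested genes rose after TAC in wild type, both encoding ectoenzymes that break down nucleotides outside the cell. Enpp1, a nucleotide pyrophosphatase, was 9.05, 9.61 and 7.9 CPM in wild type sham, 35.5, 27.2 and 30.4 for wild type TAC, 7.99, 10.5 and 7.22 for T497A sham and 11.9, 14.1 and 14.5 CPM in T497A TAC. Wild type TAC libraries were the highest, T497A TAC libraries came next, and neither overlapped the sham libraries.

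Enpp1 rose 3.5-fold after TAC in wild type (1.81 ± 0.15, edgeR adjusted p = 6.43e-06) and gave 0.66 ± 0.15 in T497A (adjusted p = 0.115, called by DESeq2 and without the low-count filter). Its TAC effects differed between genotypes by -1.15 ± 0.21 (adjusted p = 0.0199), a call lost without wild type sham replicate 3, wild type TAC replicate 3 or T497A TAC replicate 1 (adjusted p = 0.0525 to 0.0597). After TAC it was 2.3-fold lower in T497A (-1.20 ± 0.15, adjusted p = 0.000595). Nt5e, the ectonucleotidase that can turn the mononucleotide into riboside, was 13.9, 17.9 and 12.5 CPM in wild type sham and 16.7, 42.5 and 27.5 CPM in wild type TAC, which overlapped. It rose 1.95-fold (0.97 ± 0.28, adjusted p = 0.0289), and 6 of 11 alternatives did not call it (0.58 to 1.00, adjusted p = 0.0569 to 0.124), among them those without wild type sham replicate 1 or 3 and without wild type TAC replicate 2 or 3.

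Around NADP, 4 of 6 listed genes fell and 1 rose after TAC in wild type, beside 12.6% and 12.3% of all tested genes. Aldh1l2, a mitochondrial folate enzyme that makes NADPH, was 15.5, 9.36 and 15.6 CPM in wild type sham, 2.78, 2.79 and 3.29 for wild type TAC, 12.4, 9.24 and 9.94 for T497A sham and 8.88, 5.24 and 8.01 CPM in T497A TAC. Every wild type TAC library lay below all others, and in T497A too the TAC libraries lay below the sham libraries. It fell 4.56-fold after TAC in wild type (-2.19 ± 0.23, edgeR adjusted p = 4.18e-05), and T497A gave -0.51 ± 0.22 (adjusted p = 0.384). Its interaction was 1.68 ± 0.32 (adjusted p = 0.0249), no longer called in 8 of 16 alternatives, each without 1 library: replicate 1 or 3 of wild type sham, wild type TAC or T497A TAC, or replicate 2 or 3 of T497A sham (1.52 to 1.76, adjusted p = 0.0582 to 0.0686). Me3, the mitochondrial malic enzyme, fell 1.45-fold in wild type (-0.54 ± 0.08, adjusted p = 0.000368). The 1 that rose was Nadk, the cytosolic counterpart of Nadk2 (1.31-fold, 0.39 ± 0.08, adjusted p = 0.0027), named after its values were seen: it was 23.5, 22.5 and 22.5 CPM in wild type sham and 29.7, 32.2 and 27.9 CPM in wild type TAC. The 2 NAD kinases thus moved in opposite directions in wild type.

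Among NAD-consuming families, 3 of 7 sirtuins fell after TAC in wild type and 0 rose, beside 12.6% and 12.3% of all tested genes. They were named after their values were seen: Sirt5 and Sirt3, the mitochondrial deacylases, at -0.39 ± 0.07 and -0.26 ± 0.09, and nuclear Sirt1 at -0.30 ± 0.09 (edgeR adjusted p = 0.000872, 0.0443 and 0.0259). Sirt3 lost its call in 7 of 11 alternatives (adjusted p = 0.0552 to 0.178), among them those without any wild type sham library or wild type TAC replicate 1 or 3. Sirt1 lost it in 5 (adjusted p = 0.053 to 0.0936), without wild type sham replicate 3, without each wild type TAC library and without the low-count filter. Of 15 PARP family genes, 3 rose and 1 fell, not far from the shares of all tested genes (12.3% and 12.6%). Parp1, the main DNA damage-responsive polymerase of ADP-ribose, fell 1.35-fold, from 64.1, 65.1 and 63.1 CPM in wild type sham to 44.5, 49.5 and 48.3 CPM in wild type TAC (-0.44 ± 0.06, adjusted p = 0.000314). T497A TAC libraries held 57.3, 56.2 and 55.9 CPM and were 1.19-fold above wild type TAC (0.25 ± 0.06, adjusted p = 0.0285). That call was lost in 6 of 11 alternatives, among them those without wild type TAC replicate 1 or 3 and T497A TAC replicate 1 or 3 (adjusted p = 0.0794 to 0.104).

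Parp9 and Tiparp, which transfer or partner in the transfer of single ADP-ribose units, rose 1.61-fold and 1.47-fold in wild type (0.69 ± 0.20 and 0.56 ± 0.16, edgeR adjusted p = 0.0264 and 0.0183). Parp9 lost this call in 5 of 11 alternatives, without any wild type sham library or wild type TAC replicate 1 or 2. Tiparp lost it in 4, without wild type sham replicate 1 or 2, without wild type TAC replicate 2, and with only these groups. Parp10 was called higher by edgeR in the average over genotypes (1.25-fold, 0.32 ± 0.09, adjusted p = 0.0217) and within neither genotype; without T497A sham replicate 1 or T497A TAC replicate 2 the average lost its call. Of 6 genes that remove ADP-ribose, 2 fell in wild type: Macrod1, by 1.41-fold (-0.50 ± 0.07, adjusted p = 0.000313), and Oard1, by 1.31-fold (-0.39 ± 0.10, adjusted p = 0.0118, and 0.0511 without wild type TAC replicate 3). In T497A edgeR called neither after TAC, whereas DESeq2 called both lower, Macrod1 at -0.28 (adjusted p = 0.0364) and Oard1 at -0.40 (adjusted p = 0.0269). Both listed aldehyde oxidases fell. Aox1, which clears methylated nicotinamide, fell 1.55-fold (-0.63 ± 0.20, adjusted p = 0.0425), a call lost in 7 of 11 alternatives, including each that left out 1 library. Aox3, named after its values were seen, was counted 30, 22 and 20 times in wild type sham and 2, 0 and 8 times in wild type TAC. Its fitted log2 fold change was -2.90 ± 0.80 (adjusted p = 0.0175), which at such counts depends on single reads, and the call was lost without wild type sham replicate 1 or wild type TAC replicate 1 (adjusted p = 0.0525 to 0.0689).

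**Figure D4:**
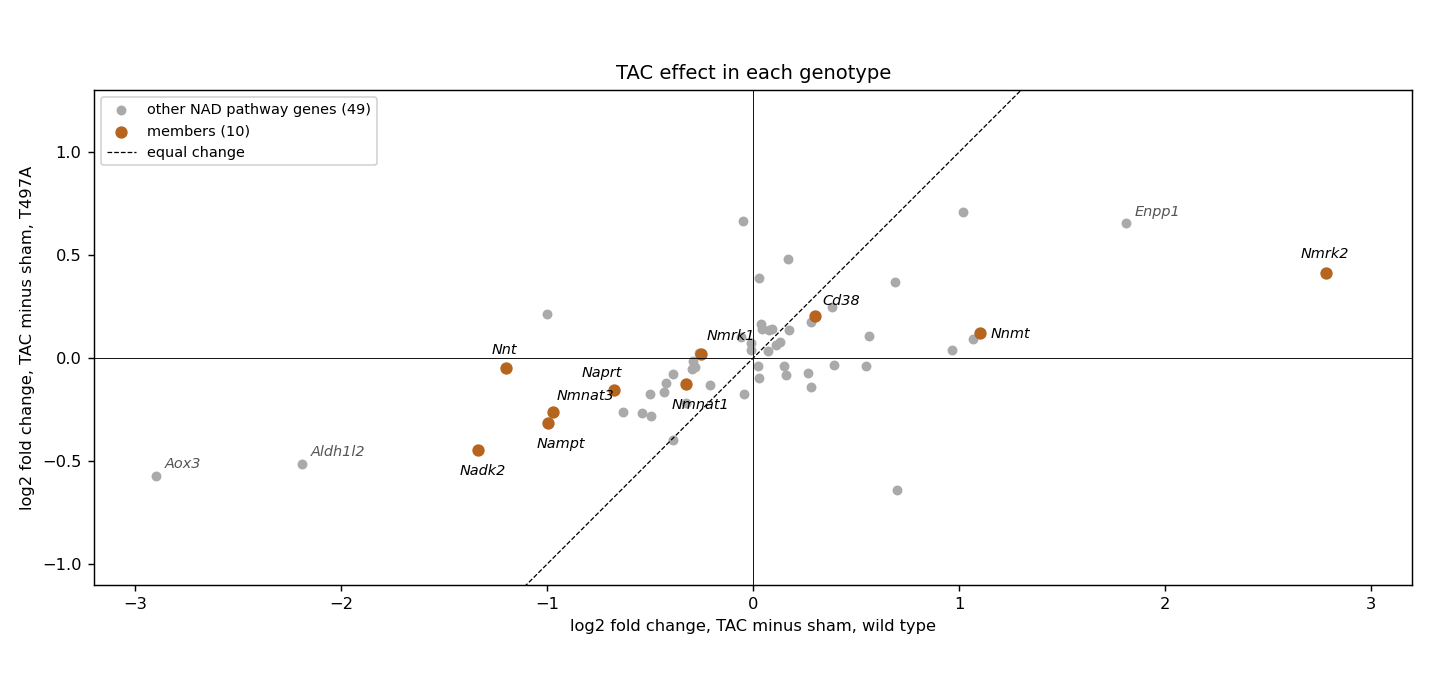
Log2 fold change of TAC against sham in wild type (horizontal axis) and in T497A (vertical axis) for the 10 members and the 49 tested pathway genes, with the line of equal effect. Enpp1 (1.81 and 0.66), Aldh1l2 (-2.19 and -0.51) and Nadk2 (-1.34 and -0.44), the 3 with a called interaction, lie nearer to 0 on the vertical axis than on the horizontal one.

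By likeness to Nmrk2, genes with a mean of at least 5 CPM were ranked on the Pearson correlation of log2 CPM over the 12 libraries, which share the 4 groups and their depth; r is a description and carries no test. Of 9376 genes compared, the 6 most alike were Fkbp1a (r = 0.975), which encodes a binding protein of the ryanodine receptor, Synpo2l (0.964), a protein of the Z-disc, Grn (0.963), Axl (0.962), Crip1 (0.959) and Tln1 (0.954). Synpo2l was 161, 190 and 175 CPM in wild type sham, 699, 381 and 746 for wild type TAC, 156, 158 and 181 for T497A sham and 188, 268 and 208 CPM in T497A TAC. It shares with Nmrk2 the lower value of wild type TAC replicate 2 and the higher value of T497A TAC replicate 2. Such likeness follows from the ranking, which used these same libraries and the TAC values that chose Nmrk2. Fkbp1a, like Synpo2l, had its 3 highest values in wild type TAC, but over a narrow range of 106 to 148 CPM.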

How the data were processed

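RNA sequencing of 12 left ventricle libraries gave 1 table of whole-number read counts for 55401 genes, which the authors deposited without normalization. Per the submitters' processing notes, the build was mm10, and limma 3.50.3, STAR 2.7.3a, Subread 1.6.3, featureCounts and Trim Galore 0.6.4 are listed without their roles. Settings, annotation, strand and multi-mapping rules are not given in sources used here. Totals were 36862004 to 46898344 counts, and chi-square per degree of freedom between replicates was 21.3 to 57.5, so none was a copy. The labels give 1 batch for all libraries.

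Groups came from the labels. Genes kept by filterByExpr (minimum count 10; 15764 genes) entered one edgeR 4.0.16 model of the 4 groups (R 4.3.3; TMM, robust glmQLFit, glmQLFTest), and p-values were adjusted by Benjamini-Hochberg over these genes, with 0.05 as the threshold; every adjusted p is of this kind unless DESeq2 1.42.0 is named. SE is the absolute log2 fold change over the square root of F. Called means an adjusted p under 0.05. The test was checked on simulated counts. Exon positions and lengths are from GENCODE (GRCm38), matched by identifier for 55141 genes (99.5%).

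Members and lists were chosen with earlier results of these data known. All 10 members are named; pathway genes are named where called with a mean CPM of at least 1, at most 4 per direction and comparison, and the 6 genes most like Nmrk2. Nadk, Sirt1, Sirt3, Sirt5, Bst1 and Aox3 fall outside this rule and were named after their values were seen. Alternatives were median-ratio size factors, DESeq2, no low-count filter, no mitochondrial genome genes, only the groups compared, and each library left out.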

Additional observations from a re-analysis of the deposited data

Results flagged for a closer look

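For 3 genes the response to TAC differed between genotypes by the interaction test of edgeR's quasi-likelihood fit. Nadk2, the mitochondrial NAD kinase, had a TAC effect 0.89 higher on the log2 scale in T497A than in wild type (SE 0.13, adjusted p = 0.00948). Aldh1l2 differed by 1.68 (SE 0.32, adjusted p = 0.0249), and Enpp1 by -1.15 (SE 0.21, adjusted p = 0.0199). Nadk2 kept its call in all 16 alternatives, whereas Aldh1l2 lost it in 8 and Enpp1 in 3. The 3 genes stand among 9 tested members and 49 tested pathway genes. Of all tested genes, 0.894% were called higher and 0.679% lower by this test.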

How the results depend on the processing

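No paired analysis was possible because every title has the same replicate number, and the meaning of the other number in each title is not stated. Of 760 values of single members under alternatives, 708 kept their side of the threshold or, for untested Nmrk2 values, stayed within 1 SE. Uncalled values that changed sign are among these. Another 40 lost a call, 10 gained one, 2 untested Nmrk2 values moved by 1 SE or more and 0 reversed a call. For 17 pathway genes 1175 of 1290 values kept their side of the threshold. Members called after TAC in T497A went from 0 to 1 with DESeq2 and with no low-count filter; between genotypes after TAC from 4 to 2 when only those groups were fitted; for the interaction from 1 to 3 with DESeq2 and 2 with no low-count filter. With 1 library left out, members called numbered 4 to 6 after TAC in wild type (7 with all) and 1 to 3 between genotypes after TAC. Calls over all genes after TAC in T497A were 18, and 296 with DESeq2, 331 with no filter, 0 with only those groups, and 0 to 36 with 1 library left out. Between genotypes after sham they were 4, 11 with DESeq2, 14 with no filter (64.3% higher, against 100% with the filter), and 1 to 5. Between genotypes after TAC they were 1371, and 463 to 1455 with 1 library left out. For the interaction they were 248, 847 with DESeq2, 898 with no filter, and 40 to 517. The cause of these shifts was not tested. Leaving out mitochondrial genome genes makes the library size smaller, which raises CPM levels by construction. It moved 36 of 40 mean CPM levels of the members by more than 1 SD, and scaling by total counts moved 6. With these genes left out, members called stayed at 7 after TAC in wild type and went from 4 to 3 between genotypes after TAC.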
